A study of Mus musculus with 8 samples.

Results

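The transcriptome described here is that of control sternal chondrocytes, the cartilage cells of the embryonic breastbone, as measured by sequencing of polyadenylated RNA. It comes from 5 control libraries out of the 8 in the series: 2 of genotype Idh1 fl/+, which carry a floxed allele of Idh1 and are labelled with no Cre, and 3 of genotype Col2a1Cre, which carry Cre recombinase driven by Col2a1 and are labelled with no floxed allele. The other 3 libraries, Col2a1Cre;Idh1 fl/+, were not used. All cells were from C57BL/6 mouse embryos at embryonic day 18.5 and were released from the sterna with enzymes before RNA was extracted. The sample labels write the floxed genotype as fl/+ and the design text of the series writes fl/fl, and the sample labels were followed. The 5 libraries were pooled for description because they share tissue, stage and strain, genes were ranked by their mean normalized count over the 5, and no genotype was tested against the other. Nothing in the labels says whether the libraries of a genotype came from separate embryos or pools, so the spread between them may be in part technical.

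Chondrocytes of growing cartilage make a matrix of thin collagen fibrils filled with hydrated proteoglycan. Type II collagen is the bulk of the fibril, type XI collagen is built into it and sets its width, type IX collagen sits on its surface, and aggrecan bound to hyaluronan through link protein fills the space between fibrils. All of these proteins pass through the endoplasmic reticulum, where collagen chains are hydroxylated, glycosylated and folded, and chondroitin sulfate is added in the Golgi apparatus. Late in their life the cells enlarge, switch on type X collagen and are replaced by bone.

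The 5 libraries held 31860422 to 44988540 reads assigned to 16432 genes, 14711 of them coding and 1721 non-coding, and each library had a read in 16305 to 16352 of these genes. Values of 1 gene across libraries, and ranks of genes, are in normalized counts, which are not corrected for length. Shares are in percent of a library's reads. Levels of different genes are compared as the normalized count divided by coding length and rescaled to sum to 1000000 in a library, in units. Col2a1, the gene of type II collagen, took 18.4% of reads in Idh1 fl/+ replicate 1 and 19.7% in Idh1 fl/+ replicate 2. It took 15.9%, 18.99% and 19.4% in Col2a1Cre replicates 1, 2 and 3, so that the mean share was 18.5% ± 1.50 (SD, n = 5). Col2a1Cre replicate 1 was thus the lowest library and the other 4 lay close together. Col2a1 ranked first in all 5 libraries, also per coding length, where its level was 68421 ± 6178 units (SD, n = 5).

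The other chondrocyte markers were abundant too. Aggrecan (Acan) ranked 9 by mean normalized count and Col9a1, the gene of a type IX collagen chain, ranked 5. Matrilin-1 (Matn1), a cartilage matrix protein that links fibrils and proteoglycan, ranked 367 with a mean normalized count of 10054. Its normalized counts were 14122 and 8359.9 in the 2 Idh1 fl/+ libraries and 9012, 9589 and 9188 in the 3 Col2a1Cre libraries, so Idh1 fl/+ replicate 1 stood above the other 4. Idh1 itself, the gene of cytosolic isocitrate dehydrogenase that the floxed allele targets, had normalized counts of 2263 and 2452 in the Idh1 fl/+ libraries, against 3624, 3647 and 3991 in the Col2a1Cre libraries. Both Idh1 fl/+ libraries lay below all 3 Col2a1Cre libraries for this gene. No test was made, and the share of all genes that separate the genotypes in this way was not counted.

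A pair of libraries stood apart. Among 5484 genes with a mean normalized count of at least 1000, Col2a1Cre replicate 1 was the library farthest from the mean of the 5 for 37.6% of genes and Idh1 fl/+ replicate 2 for 29.8%, while the other 3 were farthest for 9.54% to 11.8% each. Within a genotype, pairs of libraries differed by more than counting error, with a chi-square per degree of freedom of 9.73 to 36.6, so no library was a copy of another. Spearman correlations across genes between libraries were 0.990 to 0.994, given as a description, since genes are not independent. With both left out, the mean share of Col2a1 was 18.9% ± 0.482 (SD, n = 3). This exclusion was chosen after the data were seen. Because the pair was picked for lying far from the mean, lower spreads without it are in part built in, here and below.

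**Figure D1:**
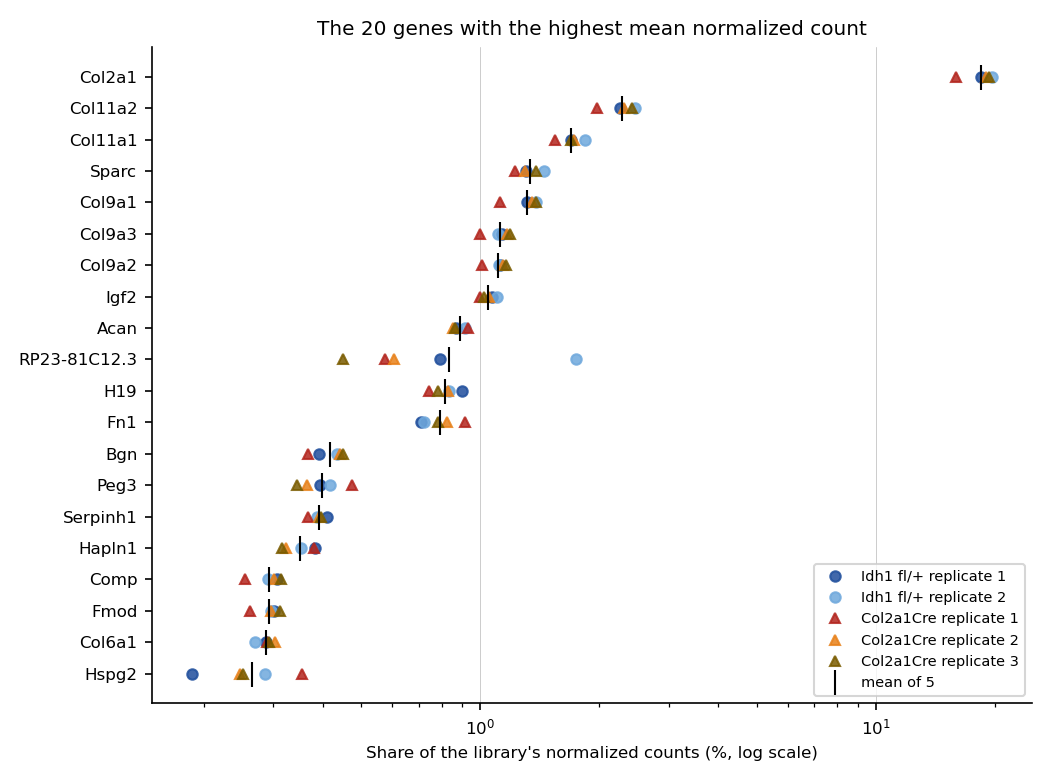
Share of each library's summed normalized counts (percent, log axis) taken by the 20 genes with the highest mean, with Idh1 fl/+ libraries as circles, Col2a1Cre libraries as triangles and the mean of 5 as a bar. Col2a1 stands alone near 18.5%, and RP23-81C12.3 is the gene whose libraries lie farthest apart.

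The 7 most abundant genes were Col2a1, Col11a2, Col11a1, Sparc, Col9a1, Col9a3 and Col9a2, and together they held 27.3% ± 2.09 of reads (SD, n = 5). All but Sparc encode collagen chains of the cartilage fibril. The plot of the top 20 shows that a steep fall followed: the top 10 genes held 30.1% ± 2.37, the top 100 held 43.8% ± 2.03 and the top 1000 held 65.8% ± 1.31 of reads (SD, n = 5 each). Of all 16432 genes, 232 held 50% of reads, 4603 held 90% and 9638 held 99%. Per library, 50% of reads lay in 234 and 175 genes in Idh1 fl/+ replicates 1 and 2, and in 314, 221 and 219 genes in Col2a1Cre replicates 1, 2 and 3. Reads were most concentrated in Idh1 fl/+ replicate 2 and least in Col2a1Cre replicate 1, the libraries that also stood apart by single genes. At the other end, 1872 genes with a mean normalized count under 10 held 0.0290% of reads in all.

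Collagen chains are built from a repeated Gly-X-Y triplet, and glycine is encoded by the 4 codons that begin with GG. The first 15 codons of the longest uninterrupted Gly-X-Y run are shown for 5 chains, because the codon content of the libraries turns on this repeat. The sequences are from GENCODE M21 coding sequences, lower case with each glycine codon in capitals.
Col2a1, codons 201 to 215, chromosome 15: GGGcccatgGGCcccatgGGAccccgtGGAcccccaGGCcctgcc
Col11a2, codons 487 to 501, chromosome 17: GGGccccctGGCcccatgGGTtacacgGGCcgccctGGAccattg
Col11a1, codons 527 to 541, chromosome 3: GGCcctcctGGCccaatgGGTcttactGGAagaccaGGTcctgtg
Col9a1, codons 418 to 432, chromosome 1: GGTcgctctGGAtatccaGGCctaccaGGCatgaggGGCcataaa
Col10a1, codons 299 to 313, chromosome 10: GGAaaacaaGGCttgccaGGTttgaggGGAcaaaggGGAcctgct
The longest run spans 339 triplets in Col2a1 (codons 201 to 1217), 338 in Col11a2 and Col11a1, 113 in each type IX chain and 61 in Col10a1, the chain of the hypertrophic collagen. These 3 fibrillar chains thus have near-equal runs of unbroken repeat, and the runs of the type IX and type X chains are shorter. The fibrillar chain Col27a1 has a run of 217 triplets, between these. The 42 collagen genes with such a run of at least 10 triplets held 27.7% ± 2.01 of reads (SD, n = 5).

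Weighted by reads, glycine codons made up 12.4% of the codons of the libraries, with a range of 11.7% to 12.8% over the 5, against a mean of 6.64% per gene over 14476 genes with a coding sequence. Without Col2a1 the weighted value was 8.96%, and without the 42 collagen genes it was 6.87%, close to that mean. Proline codons, which begin with CC and fill many of the X and Y positions that are later hydroxylated, behaved alike. They made up 9.25% of codons weighted by reads, 6.18% without the 42 collagen genes and 6.11% per gene on average. These values weight each gene by its reads, so long genes count for more than their number of molecules.

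Among the fibril-forming chains, Col11a2 had normalized counts of 838659 and 973722 in the Idh1 fl/+ libraries and 691028, 865027 and 902735 in the Col2a1Cre libraries. It followed Col2a1 closely: the ratio of Col11a2 to Col2a1, each per coding length, was 0.106 ± 0.00121 (SD, n = 5), a coefficient of variation (CV, SD over mean) of 1.14%, although each gene on its own had a CV near 12%. Both genes were highest in Idh1 fl/+ replicate 2 and lowest in Col2a1Cre replicate 1. Without these libraries the CVs were 3.71% for Col11a2 and 2.97% for Col2a1, so much of their spread over the 5 lay in that pair. Col11a1, the other specific chain of type XI collagen, stood at 0.716 ± 0.0278 of Col11a2 per coding length (SD, n = 5) and at 0.401 per exon length, since its transcript is longer. Col27a1, a fibrillar collagen of cartilage, ranked 24 and had 0.217% of reads.

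The 3 chains of type IX collagen, which assemble 1 of each into a molecule, were at near-equal levels. Per coding length they stood at 7838 ± 704 for Col9a1, 8892 ± 511 for Col9a2 and 9064 ± 611 units for Col9a3 (SD, n = 5). The ratio of Col9a2 to Col9a3 was 0.982 ± 0.0154 and that of Col9a1 to Col9a3 was 0.864 ± 0.0324 (SD, n = 5). With exon lengths these ratios were 1.24 and 0.890, so the order of the 3 chains depends on the length used. Per coding length, Col9a3 stood at 0.133 ± 0.00542 of Col2a1 (SD, n = 5).

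The 35 proteoglycan and glycoprotein genes held 5.56% ± 0.095 of reads (SD, n = 5), the steadiest summed share of the large classes, with a range of 5.42% to 5.67%. Only the sum was this steady: the median CV of its members was 11.6%, against 10.4% for the cartilage collagens. Sparc, a collagen-binding glycoprotein, led with 1.33% of reads and ranked 3 per coding length at 22121 units. Acan, the core protein of aggrecan, had normalized counts of 321713 and 361287 in the Idh1 fl/+ libraries and 327065, 318630.3 and 322310.2 in the Col2a1Cre libraries. Idh1 fl/+ replicate 2 was the high library and the other 4 lay within a narrow band, and without the 2 libraries that stood apart the CV of Acan was 0.615%, against 5.34% over all 5. Hapln1, the link protein that holds aggrecan on hyaluronan, had a level 2.37 ± 0.178 times that of Acan per coding length (SD, n = 5), but 0.501 times per exon length. Fibronectin (Fn1), which binds cells to matrix, differed from the collagens in its library order: it had 262492 and 283757 normalized counts in the Idh1 fl/+ libraries and 321567, 307315 and 292270.4 in the Col2a1Cre libraries, with Col2a1Cre replicate 1 the highest. Perlecan (Hspg2), a large heparan sulfate proteoglycan, had 69259.9 and 112805 in the Idh1 fl/+ libraries and 124117, 92064 and 94179 in the Col2a1Cre libraries, again highest in Col2a1Cre replicate 1. Without the 2 libraries that stood apart the CV of Fn1 was 7.94% and that of Hspg2 was 16.2%, against 7.69% and 21.4% over all 5.

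Small leucine-rich proteins that coat collagen were also among the most abundant. Biglycan (Bgn) had 0.417% of reads and fibromodulin (Fmod) 0.293%, and Comp, a bridging protein of the cartilage matrix, had 0.293%. Chondromodulin, listed as Lect1 and known to keep vessels out of cartilage, had 0.239%. Epiphycan (Epyc) had a mean normalized count of 46259.7, Ucma 27594, chondroadherin (Chad) 23086 and matrilin-3 (Matn3) 22117, all 4 being cartilage matrix proteins. Lubricin (Prg4), which marks the joint surface, had a mean normalized count of 488, and Cilp, a protein of articular cartilage, 11.1. Of the 35 genes of the class, 28 had a mean normalized count above 1000.

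**Figure D2:**
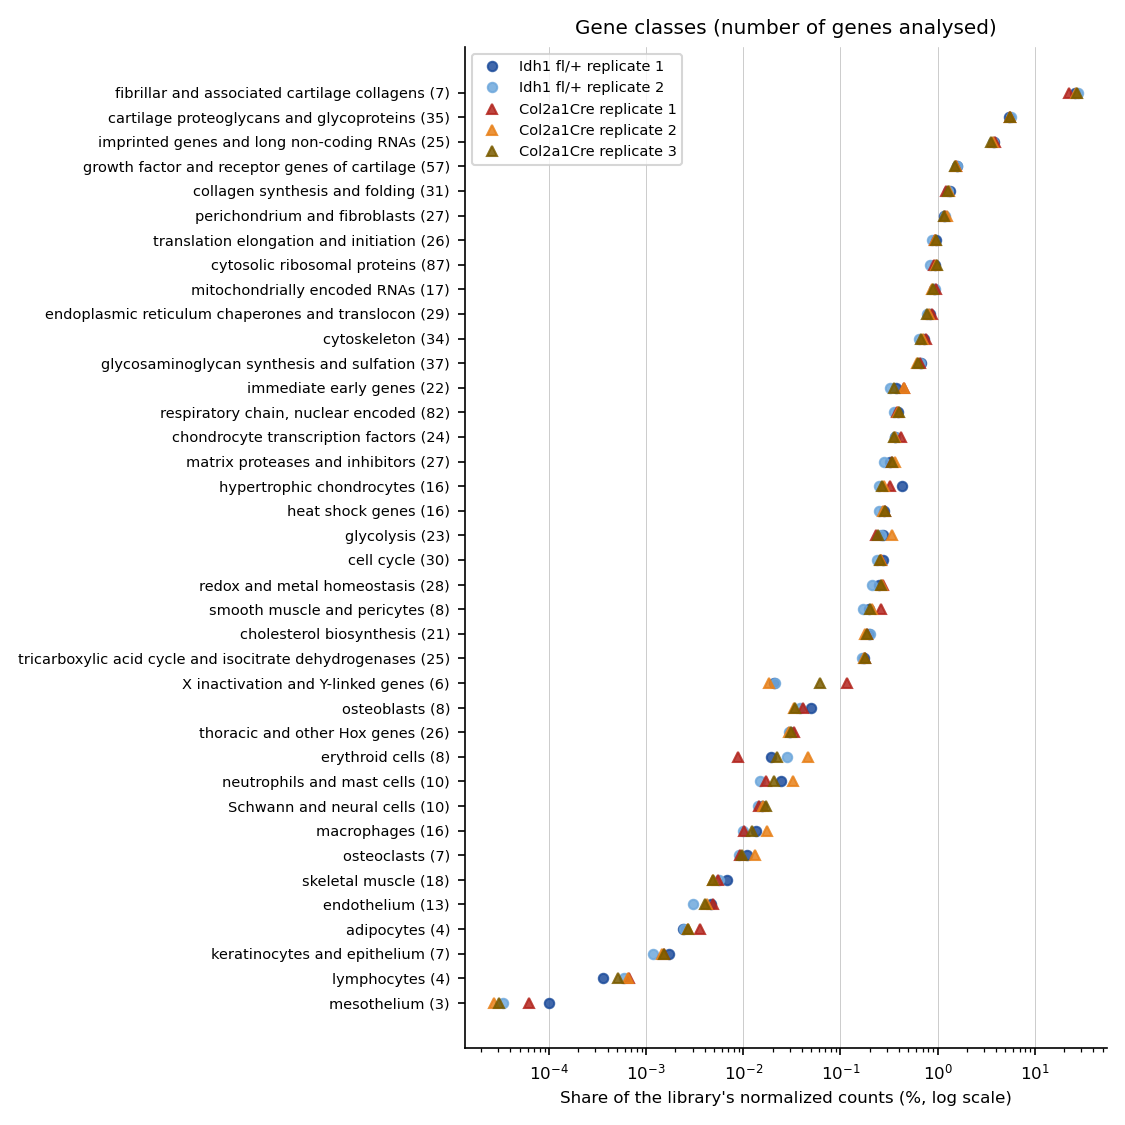
Share of each library's summed normalized counts (percent, log axis) taken by each of 38 gene classes, 1 marker per library, with the number of genes analysed in brackets. Cartilage collagens hold 22.8% to 27.8% of reads, and most lists of other cell types lie below 0.1%.

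The machinery that makes the matrix was abundant as well. The 31 genes of collagen synthesis and folding held 1.29% ± 0.045 of reads (SD, n = 5), and 29 of them had a mean above 1000. Serpinh1, the collagen chaperone HSP47, ranked 15 with 0.390% of reads, and P4hb, a subunit of prolyl hydroxylase, ranked 36. Plod2, which hydroxylates lysine for cross-links, ranked 58. Serpinh1 had normalized counts of 151844 and 152837 in the Idh1 fl/+ libraries and 128544, 146377 and 147769 in the Col2a1Cre libraries. As for the collagens, Col2a1Cre replicate 1 was low, and 18 of the 31 genes of this class were lowest in that library, beside 31.5% of all 11106 genes with a mean of at least 100. Without the 2 libraries that stood apart the CV of Serpinh1 was 1.91%, against 6.77% over all 5. Chaperones of the endoplasmic reticulum held 0.815% of reads and were led by Hspa5 (BiP), Hsp90b1 and Calr. Hspa5 did not follow the collagens: it had 48962 and 46356 normalized counts in the Idh1 fl/+ libraries and 57571, 45661 and 43251 in the Col2a1Cre libraries, with Col2a1Cre replicate 1 the highest, and its CV was 6.24% without those 2 libraries, against 11.4% over all 5.

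For the chondroitin sulfate chains, 37 genes of glycosaminoglycan synthesis and sulfation held 0.648% ± 0.027 of reads (SD, n = 5). The most abundant were the sulfation genes Papss2, which makes the sulfate donor and ranked 53, Chst11, a chondroitin 4-O-sulfotransferase that ranked 65, and Slc26a2, the sulfate transporter that ranked 91. Xylt1, whose enzyme attaches the first sugar, ranked 202. Chst13 was not analysed here. Papss2 had normalized counts of 45106 and 51072 in the Idh1 fl/+ libraries and 38440.3, 39495 and 42641 in the Col2a1Cre libraries, highest in Idh1 fl/+ replicate 2, and its CV was 6.63% without the 2 libraries that stood apart, against 11.7% over all 5.

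The master regulator of chondrocytes, Sox9, varied little in normalized counts. Its normalized counts were 36146 and 36615 in the Idh1 fl/+ libraries and 36571, 36129 and 35473 in the Col2a1Cre libraries, a CV of 1.27%. On this scale the CV of its target Col2a1 was 11.7%. On shares of each library's reads the CV was 4.46% for Sox9 and 8.11% for Col2a1, so how steady Sox9 was depends on the scaling. Sox6 and Sox5, which act with it, had mean normalized counts of 9239 and 7105. Wwp2, a ubiquitin ligase gene that hosts a microRNA of cartilage, ranked 54 with a CV of 2.40%. Runx2, which drives hypertrophy, had a mean normalized count of 2401, and Pax9, a factor of the early sclerotome, 17.5. The 24 genes of this class, Wwp2 among them, together held 0.375% of reads.

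Several of the most abundant RNAs host microRNAs, whose mature forms these libraries of polyadenylated RNA do not measure. Of the top 100 genes 93 matched the reference, and 10 of these contain 12 annotated hairpins. The mature sequences of the best known are shown because their hosts are among the leading RNAs of these cells; they are from RefSeq on GRCm38.p6, with the seed, bases 2 to 8, in capitals.
miR-140-3p, in Wwp2, chr8:107551288-107551308, + strand: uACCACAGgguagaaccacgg
miR-675-5p, in H19, chr7:142577112-142577133, - strand: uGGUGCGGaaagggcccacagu
miR-483-3p, in Igf2, chr7:142654932-142654952, - strand: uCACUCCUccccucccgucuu
miR-335-5p, in Mest, chr6:30741314-30741336, + strand: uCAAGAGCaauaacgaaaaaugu
The hosts ranked 54 (Wwp2), 11 (H19), 8 (Igf2) and 25 (Mest), and no 2 of these 4 share a seed. The table also lists the hairpin gene Mir140, at 65.4 and 86.8 normalized counts in the Idh1 fl/+ libraries and 88.0, 58.5 and 44.5 in the Col2a1Cre libraries. Such reads lie within the host's transcript, so they cannot be told apart from reads of Wwp2.

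Imprinted genes, which are expressed from 1 parental allele and many of which set fetal growth, made up a large share: 25 imprinted and long non-coding genes held 3.73% ± 0.135 of reads (SD, n = 5). Igf2, a fetal growth factor, had 1.05% of reads and was the second gene per coding length at 30210.1 units, which is 0.443 ± 0.0287 of the level of Col2a1 (SD, n = 5). Its transcript has long untranslated parts, and per exon length the ratio was 0.0920. Igf2 had normalized counts of 396303 and 433993 in the Idh1 fl/+ libraries and 349660.2, 393193 and 381937 in the Col2a1Cre libraries, lowest in Col2a1Cre replicate 1. H19, the non-coding RNA next to Igf2, had 0.817% of reads, Peg3 had 0.399%, Dlk1 0.253% and Mest 0.208%. The growth-limiting genes Grb10 and Cdkn1c ranked 46 and 100. Snhg1, Snhg8, Kcnq1ot1, Norad and Rn7sl1 were not analysed here.

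Of 57 growth factor and receptor genes, which held 1.56% of reads with Igf2 included, Igf2 ranked first. The receptor genes with the highest normalized counts were Fgfr3, which restrains cartilage growth, at rank 56 with normalized counts of 42232 and 44168 in the Idh1 fl/+ libraries and 41006, 40842 and 41705 in the Col2a1Cre libraries, and Fgfr1 at rank 185. Fgfr3 was steady, with a CV of 3.19%. Per coding length Fgfr3 stood at 774 and Fgfr1 at 282 units. Igf2, itself a ligand, stood far above both receptor genes on this scale, at 30210 units. Some other ligands, picked after their values were seen, were lower. Ihh, the hedgehog ligand of prehypertrophic cells, stood at 62.9 and Pthlh, the ligand that holds back hypertrophy, at 13.1 units. Igf1 stood at 3.74 and Fgf18 at 0.673 units. Pth1r, the receptor of Pthlh, ranked 789. Cyr61 and Ctgf, matricellular genes, ranked 167 and 455.

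RNAs of hypertrophic chondrocytes were present, at levels that differed between the libraries. Type X collagen (Col10a1), the defining gene of hypertrophic chondrocytes, had normalized counts of 63854 and 38049.7 in the Idh1 fl/+ libraries and 36088, 32665 and 39068 in the Col2a1Cre libraries. Spp1 (osteopontin), a gene of late hypertrophic cells and bone, had 61183 and 30124 in the Idh1 fl/+ libraries and 47309.9, 40838 and 33273 in the Col2a1Cre libraries. Idh1 fl/+ replicate 1 was highest for both, and the 2 libraries of that genotype lay at opposite ends for Spp1. The 16 genes of the hypertrophic list held 0.435% and 0.252% of reads in Idh1 fl/+ replicates 1 and 2 and 0.320%, 0.284% and 0.271% in Col2a1Cre replicates 1, 2 and 3. Of the 15 with a mean of at least 100, 11 were highest in Idh1 fl/+ replicate 1, which was the highest library for 15.2% of all 11106 genes with such a mean. Per coding length Col10a1 stood at 0.0134 ± 0.00421 of Col2a1 (SD, n = 5). In bulk RNA, more hypertrophic cells and more of these RNAs per cell cannot be told apart.

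Bone and perichondrial genes were present too. The 27 genes of the perichondrium and fibroblast list held 1.19% of reads, with a range of 1.16% to 1.25%. Of this, Col6a1, Col6a3 and Col6a2 accounted for 0.288%, 0.231% and 0.181%. The 8 osteoblast genes analysed held 0.0391%. The type I collagen chains Col1a2 and Col1a1, which mark perichondrium and bone, ranked 38 and 98, and Col1a2 stood at 0.00978 ± 0.0012 of Col2a1 per coding length (SD, n = 5). Although type I collagen holds a pair of alpha 1 chains for each alpha 2 chain, Col1a1 stood at 0.344 ± 0.0648 of Col1a2 per coding length (SD, n = 5) and at 0.691 per exon length. Col1a1 had normalized counts of 23308 and 29969 in the Idh1 fl/+ libraries and 10869.8, 32128 and 21661 in the Col2a1Cre libraries, lowest in Col2a1Cre replicate 1, and its CV was 21.9% without the 2 libraries that stood apart, against 35.4% over all 5. The osteocalcin genes Bglap and Bglap2, made by mature osteoblasts, had means of 11.9 and 7.05 normalized counts, with an uncertain split between these close copies. Type VI collagen, the collagen of the rim around each chondrocyte, was steady for 2 of its chains: Col6a1 had a CV of 3.87% and Col6a2 of 1.49%, but Col6a3 one of 16.9% (5.25% without the 2 libraries that stood apart), with a normalized count of 110704 in Col2a1Cre replicate 1 against 73938 to 81765 in the other 4 libraries. The Hox genes of the thorax were led by Hoxc8, at a mean of 2342 normalized counts with a CV of 1.64%, while Hoxc9 averaged 42.2 and Hoxd9 4.44.

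Genes of the general cell machinery took a small share. The 26 translation factors held 0.938% of reads, led by Eef2 at rank 26, 87 cytosolic ribosomal protein genes held 0.927%, and 17 mitochondrially encoded RNAs held 0.920%, led by mt-Cytb. The 82 nuclear genes of the respiratory chain held 0.385%, 23 glycolytic genes 0.272%, 21 genes of cholesterol synthesis 0.190% and 25 genes of the tricarboxylic acid cycle 0.175%. The low shares of ribosomal proteins and of some glycolytic genes have to be read with the counting in mind. Gapdh, a standard reference gene of glycolysis, had normalized counts of 442 and 499.6 in the Idh1 fl/+ libraries. In the Col2a1Cre libraries it had 442, 477 and 365. Per coding length Gapdh stood at 18.3 units, while Aldoa and Ldha, of the same pathway, stood at 564 and 524 units. Gapdh, Aldoa and Ldha each have 2 pseudogenes named after them in GENCODE M21. Pseudogenes under other names were not counted, here or for the ribosomal genes below, so these counts do not give the number of copies. The products of ribosomal protein genes mostly enter the ribosome in equal number. Their list also holds Rpl3l and Rpl39l, named as relatives of Rpl3 and Rpl39, at 0.210 and 3.13 units per coding length. The other genes of the list with a coding length stood between 3.32 (Rpl23a) and 1845 units (Rplp1). The 62 genes of the list with a pseudogene named after them in GENCODE M21 had a median of 93.4 units, and the 23 without had one of 380 units. Rplp1 is among those with such a pseudogene and Rpl3l among those without. The part of such copies in these levels was not tested. Reads that match several near-identical copies cannot be assigned to one of them, no source used here says how they were counted, and the levels of such genes are uncertain for that reason.

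Immediate early genes, which cells switch on within minutes of a stimulus, took up a marked share: the 22 genes held 0.392% ± 0.059 of reads (SD, n = 5). Egr1 ranked 68, Fos 155, Ier2 208 and Jun 269. Egr1 had normalized counts of 33307 and 27626 in the Idh1 fl/+ libraries and 39199, 37977 and 31959.6 in the Col2a1Cre libraries. Of the 22 genes, 12 were highest in Col2a1Cre replicate 2 and 14 were lowest in Idh1 fl/+ replicate 2, beside 16.6% and 22.9% of all 11106 genes. Without the 2 libraries that stood apart, 17 of the 22 were highest in Col2a1Cre replicate 2, beside 30.0% of all genes.

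Cell types beyond cartilage, bone and perichondrium left small traces. The perichondrium and fibroblast list, described above, held more, at 1.19% of reads. Markers of red cells and macrophages were highest in Col2a1Cre replicate 2. Hbb-b1, a beta globin of red cells, had 4186 and 6605 normalized counts in the Idh1 fl/+ libraries and 1714, 10419 and 4858 in the Col2a1Cre libraries. All 5 red cell genes and all 7 macrophage genes with a mean of at least 100 were highest in Col2a1Cre replicate 2, which was the highest library for 16.6% of all 11106 genes. In share of reads the 8 red cell genes ranged from 0.00882% to 0.0459%, the 10 genes of neutrophils and mast cells from 0.0147% to 0.0327%, and the 16 macrophage genes from 0.00987% to 0.0176%. Globin genes come in near-identical copies, so the split between Hbb-b1 and Hbb-b2, or Hba-a1 and Hba-a2, is uncertain, and Hbb-bs and Hbb-bt were not analysed here. Endothelial genes held 0.00416%, skeletal muscle genes 0.00552%, adipocyte genes 0.00277%, epithelial genes 0.00149% and lymphocyte genes 0.000555% of reads. Ms4a1, the gene of the B cell antigen CD20, had 0 reads in all 5 libraries. Apart from the perichondrium and fibroblast list, the smooth muscle and pericyte list was the exception at 0.209%. Of this, Cspg4, a chondroitin sulfate proteoglycan that chondrocytes also make, accounted for 0.193%. Myh11, the defining smooth muscle gene, averaged 21.1 normalized counts. Likewise S100b, also a chondrocyte gene, made up 0.0142% of the 0.0154% held by the Schwann cell list.

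**Figure D3:**
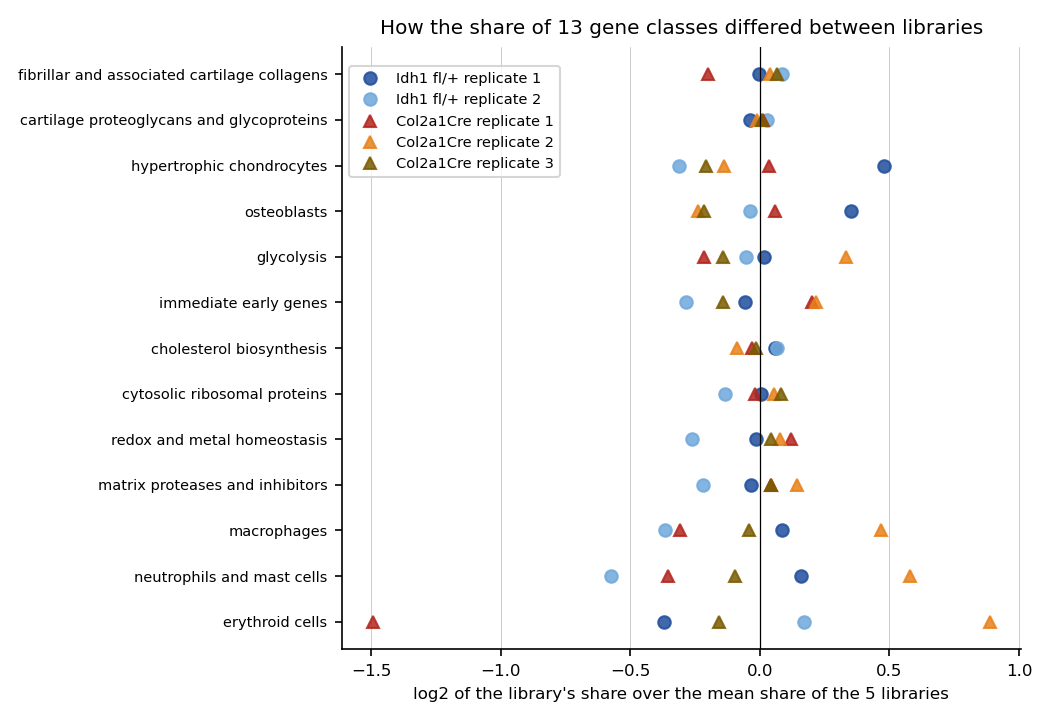
log2 of each library's share over the mean share of the 5 libraries for 13 gene classes, with Idh1 fl/+ libraries as circles and Col2a1Cre libraries as triangles. Glycolysis and the blood cell lists are highest in Col2a1Cre replicate 2, hypertrophic genes in Idh1 fl/+ replicate 1, and cartilage collagens are lowest in Col2a1Cre replicate 1.

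The classes varied between libraries in separate ways. Of 23 glycolytic genes 18 were highest in Col2a1Cre replicate 2, and 18 were lowest in Col2a1Cre replicate 1, beside 16.6% and 31.5% of all 11106 genes. Without Idh1 fl/+ replicate 2 and Col2a1Cre replicate 1, 21 of the 23 were highest in Col2a1Cre replicate 2, beside 30.0% of all genes. Ldha, which makes lactate, had 13225 and 12842 normalized counts in the Idh1 fl/+ libraries and 9978, 16908 and 11233 in the Col2a1Cre libraries. The hypoxia-induced genes Car9, Egln3, Ndrg1 and Bnip3, picked after their values were seen, were all highest in Col2a1Cre replicate 2, and Car9, a carbonic anhydrase, had 719 and 1025 normalized counts in the Idh1 fl/+ libraries and 372, 1775 and 504 in the Col2a1Cre libraries. Of 21 genes of cholesterol synthesis, 18 were highest in Idh1 fl/+ replicate 2, beside 27.9% of all 11106 genes, though the share of reads of this class differed little, at 0.198% and 0.199% in the Idh1 fl/+ libraries and 0.186%, 0.179% and 0.188% in the Col2a1Cre libraries. Of the 77 respiratory chain genes with a mean of at least 100, 39 were highest in Col2a1Cre replicate 3 and 52 lowest in Col2a1Cre replicate 1, beside 17.7% and 31.5% of all 11106 genes. These counts rest on normalized counts. In share of reads the class was lowest in Idh1 fl/+ replicate 2, at 0.358%, against 0.380% in Col2a1Cre replicate 1. It was highest in Col2a1Cre replicate 3, at 0.399%. Without the 2 libraries that stood apart, 40 of the 77 were highest in Col2a1Cre replicate 3, beside 34.9% of all genes, and 13 of the 21 cholesterol genes were highest in Idh1 fl/+ replicate 1, beside 35.2%. With blood cell genes and glycolysis both high in Col2a1Cre replicate 2, the part of other cells in the glycolytic pattern was not tested.

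**Figure D4:**
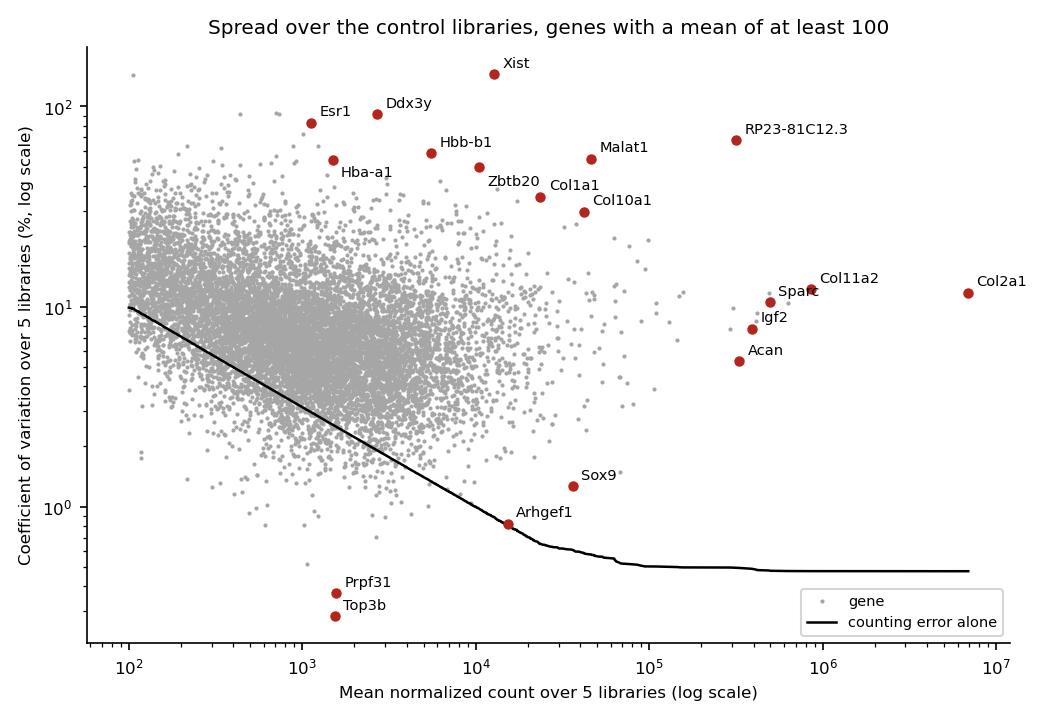
Coefficient of variation over the 5 libraries (percent) against the mean normalized count, both on log axes, for the 11106 genes with a mean of at least 100, with the line showing counting error alone. Most genes lie above the line, and named genes are marked in red, from Xist at the top to Top3b at the bottom.

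Over 11106 genes with a mean normalized count of at least 100, the median CV over the 5 libraries was 7.31%, with quartiles of 4.89% and 11.1%, against a median of 3.17% from counting alone. The CV was above counting error for 91.5% of genes and above 50% for 28. Without Idh1 fl/+ replicate 2 and Col2a1Cre replicate 1 the median CV was 5.08%, and pooled within genotypes it was 6.73%. The genes with the lowest CVs of normalized counts, among those with a mean of at least 1000, were Top3b, a topoisomerase gene, at a CV of 0.283%, Prpf31, a splicing factor gene, at 0.370%, and Lrrc8d, a subunit gene of volume-regulated channels, at 0.518%. Top3b had 1549 and 1538 normalized counts in the Idh1 fl/+ libraries and 1548, 1542 and 1542 in the Col2a1Cre libraries. The next 7 were Api5, Rbm45, Arhgef1, Tsc2, Tmem201, Tmem127 and Ctdspl, with CVs of 0.704% to 0.919%. For 9 of the 10, all but Arhgef1, the CV was below the one that counting gives on average, 2.52% for Top3b, so their true spread was not measurable at this depth. On shares of each library's reads the CVs of these 10 genes were 3.78% to 4.88%, and none was among the 10 lowest, so the order depends on the scaling.

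The most variable genes fell into groups with different library patterns. Xist, the RNA that silences an X chromosome in female cells, had 53.7 and 33.3 normalized counts in the Idh1 fl/+ libraries and 40733, 49.4 and 22916 in the Col2a1Cre libraries. Ddx3y, a gene of the Y chromosome, had 4488 and 4969.6 in the Idh1 fl/+ libraries and 9.90, 4054 and 4.14 in the Col2a1Cre libraries. Col2a1Cre replicates 1 and 3 were thus high for Xist and near 0 for Ddx3y, and the other 3 libraries the reverse. Usp9y and Zfy1 were not analysed here. Esr1, the gene of the estrogen receptor alpha, followed the genotype label: it had 117 and 105 normalized counts in the Idh1 fl/+ libraries and 1860.4, 1922 and 1599 in the Col2a1Cre libraries. All 3 Col2a1Cre libraries lay far above both Idh1 fl/+ libraries for this gene, with no test made and the share of all genes that do so not counted. The labels do not say whether the Cre carries a sequence of this receptor, so these are reads assigned to Esr1 and may not be RNA of the endogenous gene.

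The heat shock genes Hspa1a and Hspa1b, a near-identical pair whose split is uncertain, were lowest in Idh1 fl/+ replicate 2. Hspa1a had 2095 and 125 normalized counts in the Idh1 fl/+ libraries and 1194, 587 and 1074 in the Col2a1Cre libraries, with a CV of 61.5% without the 2 libraries that stood apart, against 72.7% over all 5. Of the 16 heat shock genes, 8 were lowest in that library, beside 22.9% of all 11106 genes, and the list held 0.249% to 0.285% of reads over the 5 libraries. RP23-81C12.3, a non-coding gene that GENCODE M21 calls Gm42418 and that ranked 10, had 293628 and 688694 normalized counts in the Idh1 fl/+ libraries and 201253, 226785 and 167782 in the Col2a1Cre libraries. Lars2, Mir5105, Mir5115, Gm15564 and Gm23935, named after their values were seen, were also all highest in Idh1 fl/+ replicate 2, and Lars2 had 12064 and 21965 in the Idh1 fl/+ libraries and 9423, 12547 and 9904 in the Col2a1Cre libraries. Without Idh1 fl/+ replicate 2 and Col2a1Cre replicate 1 the CV of RP23-81C12.3 was 27.4% and that of Lars2 was 12.2%, against 67.7% and 38.6% over all 5. RP23-81C12.1, another non-coding gene, which ranked 161, did not share this order: it had 20437 and 16868 normalized counts in the Idh1 fl/+ libraries and 14538, 14173 and 19053 in the Col2a1Cre libraries. The non-coding share of reads was 2.58% and 3.55% in the Idh1 fl/+ libraries and 2.57%, 2.33% and 2.14% in the Col2a1Cre libraries.

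Malat1, a nuclear non-coding RNA, had 28006 and 51923 normalized counts in the Idh1 fl/+ libraries and 88696, 34163 and 29444 in the Col2a1Cre libraries. Zbtb20, a zinc finger gene of growth plate chondrocytes, had 6772 and 12245 in the Idh1 fl/+ libraries and 18856, 7125 and 7368 in the Col2a1Cre libraries. Both were highest in Col2a1Cre replicate 1 and next highest in Idh1 fl/+ replicate 2. Without these libraries the CV of Malat1 was 10.5% and that of Zbtb20 was 4.23%, against 54.8% and 49.6% over all 5. As these libraries were the highest for both genes, leaving them out lowers the CV by construction.

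**Figure D5:**
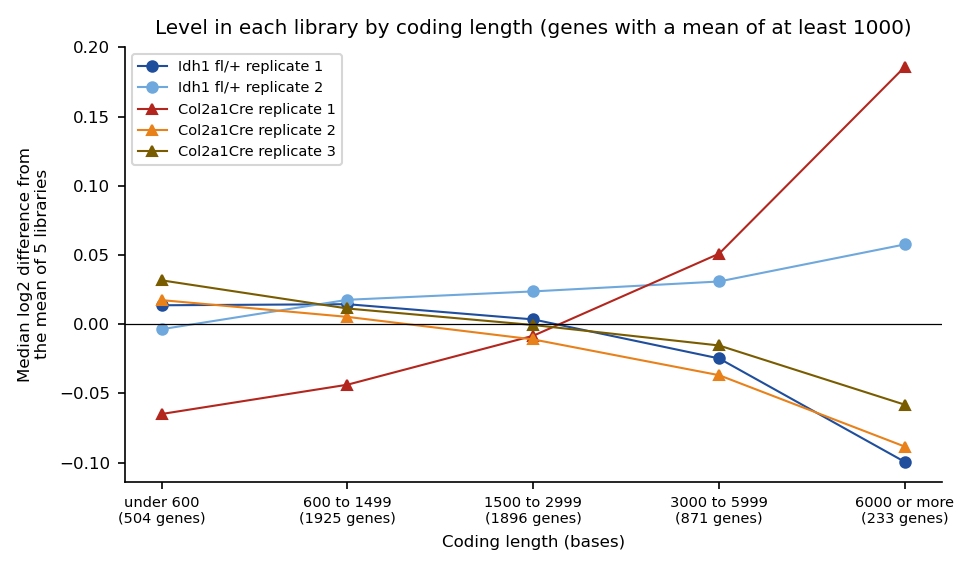
Median log2 difference of each library from the mean of the 5 (vertical axis) for genes with a mean of at least 1000, grouped by coding length in bases (horizontal axis), with Idh1 fl/+ libraries as circles and Col2a1Cre libraries as triangles. Long genes lie above the mean in Col2a1Cre replicate 1 and below it in Idh1 fl/+ replicate 1.

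Part of the spread went with gene length. Among genes with a mean of at least 1000, the 233 with a coding length of 6000 bases or more had a median log2 difference from the mean of the 5 libraries of -0.10 and 0.06 in the Idh1 fl/+ libraries and 0.19, -0.09 and -0.06 in the Col2a1Cre libraries. The 504 with a coding length under 600 bases had 0.01 and 0.00 in the Idh1 fl/+ libraries and -0.06, 0.02 and 0.03 in the Col2a1Cre libraries. Col2a1Cre replicate 1 and Idh1 fl/+ replicate 2 were the libraries in which long genes were high, as the plot of coding length shows. Long genes named above, Hspg2, Fn1 and Col6a3, were among those highest in Col2a1Cre replicate 1, while the long collagen genes Col2a1, Col11a2 and Col11a1 were lowest there. The part of length in the differences of single genes was not tested.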

How the data were processed

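Primary sternal chondrocytes were sequenced from embryos, and the deposited tables give each gene's normalized expression in each library. The submitters' processing notes name STAR, HTSeq, DESeq2, cutadapt and Trim Galore. Their versions, the genome build and any use of strand in counting were not given in the sources used here. Per the labels' protocols, libraries were made with a stranded mRNA kit. The signal deposited by the authors is a normalized count: 100% of values were whole multiples of 1 value per library within 0.001 reads, which gave the reads per library. No gene had fewer than 10 reads over the 8 libraries.

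From these values shares of each library's total, means, SDs and CVs over the 5 control libraries were computed with Python 3.11.15, pandas 2.3.3, NumPy 2.4.6 and SciPy 1.17.1, and figures with Matplotlib 3.10.9. Counting error is the Poisson CV of the reads and covers counting only. Reads per library were 31860422 to 44988540, so genes with a mean of at least 100 have a counting CV of about 10% or less. Lengths and coding sequences came from GENCODE M21, to which 16233 IDs (98.8%) matched, and 98.2% of coding genes had a coding length. Alternatives were lengths, filters, pseudocounts, scaling, weighting of genotypes and leaving out libraries.

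The genes, lists and classes were chosen with earlier results of these data known. Named by rule were the 20 highest genes, the 4 highest members of each class, the 10 highest and the 10 lowest CVs among genes with a mean of at least 1000, the 10 highest levels per coding length, the 4 highest non-coding genes, the chondrocyte markers and class members not analysed here. Further class members and other genes in the text were picked after their values were seen. Not all genes named by the rule are printed. No test between groups was made.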

Additional observations from a re-analysis of the deposited data

Results flagged for a closer look

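Of 213 gene levels and class shares examined over the 5 libraries, 27 (12.7%) had 1 library far from the other 4, its gap to the nearest being more than 0.71 of the whole range. Chance gives this in about 1 in 20 groups, and the genes are not independent.

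Col2a1Cre replicate 1 was the lowest library for 8 genes, most of them of the matrix and its folding: Col9a3 (350147 normalized counts), Col9a2 (354059), Serpinh1 (128544), Comp (89298), Fmod (91913), P4hb (53581), Fkbp10 (19083) and the cell cycle kinase gene Cdk4 (5496). The same library was the highest for Col6a3 (110704 normalized counts) and the lipase gene Lpl (573). It was also the highest for the share of chondrocyte transcription factors (0.423% of reads, of which Zbtb20 held 0.0538%) and of adipocyte genes (0.00355%). Without Zbtb20 the share of that class was 0.345% and 0.335% in the Idh1 fl/+ libraries and 0.369%, 0.344% and 0.338% in the Col2a1Cre libraries.

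Idh1 fl/+ replicate 2 was the highest library for Acan (361287 normalized counts), RP23-81C12.3 (688694), mt-Nd5 (45636), Xylt1 (16723) and Sox6 (10998). It was the lowest for the adhesion gene Mcam (968 normalized counts) and for the share of translation factors (0.886% of reads).

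Idh1 fl/+ replicate 1 was the highest for Col10a1 (63854 normalized counts), Matn1 (14122) and Phex (1112), a gene of mineralizing cells. It was also the highest for Tubb3 (70.3), Krt8 (68.3) and Krt19 (26.4), which are low in all 5 libraries. Col2a1Cre replicate 2 was the highest for Jun (16243) and the glucose transporter gene Slc2a1 (14112).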

How the results depend on the processing

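No paired analysis was possible because replicate numbers follow the order of the records and no test between groups was made. Length mattered most. Per coding length the share of Col2a1 was 6.84%, of the top 10 genes 17.1%, of the top 100 30.9% and of all classed genes 36.7% (47.0% by reads), and 522 genes held 50% of the total. Per exon length, an alternative chosen after seeing the data, these shares were 9.26%, 22.0%, 40.4% and 43.8%. The level of Col2a1, in parts of 1000000, was 184807 with no length correction and 92585 per exon length. Of 38 class shares, 34 moved by over 1 SD per coding length and 32 per exon length. With coding genes only 4 moved, and 1 without mitochondrially encoded genes. With equal weight for genotypes, medians, or libraries left out, 0 moved. The SD is that of the same 5 libraries. Such settings cannot shift a share by over 1 SD, so nothing is read from this 0. The median CV was 6.73% pooled within genotypes, 7.90% on shares of each library, 9.17% with a minimum mean of 10, 5.87% with a minimum of 1000 and 5.08% without the 2 libraries that stood apart. The last setting was chosen after seeing the data. Leaving out 1 library gave 18.2% to 19.1% for Col2a1, 29.6% to 31.1% for the top 10, 43.2% to 44.6% for the top 100, 213 to 247 genes for 50% of reads, 46.7% to 47.7% for classed genes, and a median CV of 6.36% to 7.56%. Of the top 100 genes, 98 to 100 remained when 1 library was left out, but 58 per coding length. The 5 libraries limit each SD, and depth limits the 1872 genes under a mean of 10, whose median CV from counting is 48.5%.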

Other observations

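Some of the most abundant genes belong to none of the classes above and were picked after their values were seen. Nedd4, a ubiquitin ligase gene, ranked 28 with 75309.5 and 75804 normalized counts in the Idh1 fl/+ libraries and 66353, 69935 and 69622 in the Col2a1Cre libraries, and Thbs1, a matricellular glycoprotein gene, ranked 30. Scd2, whose enzyme makes monounsaturated fatty acids, ranked 34, with 67929 and 76604 in the Idh1 fl/+ libraries and 55169.6, 61542 and 59501 in the Col2a1Cre libraries. Both Idh1 fl/+ libraries lay above the 3 Col2a1Cre libraries for Nedd4 and Scd2, and no test was made. The share of all genes that separate the genotypes in this way was not counted, so nothing is read from this order. Col16a1, a collagen gene of the fibril surface, ranked 37, Itm2a, a membrane protein gene known from chondrogenesis, ranked 39, and C1qtnf3, a secreted protein gene of cartilage, ranked 59 with a CV of 4.57%.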
